A study of Mus musculus with 10 samples.

Results

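This account covers 40 genes of the immediate early response and of the feedback on mitogen-activated protein kinase (MAPK) signalling, taken by symbol from a table of 35725 gene rows, in eosinophils sorted from mouse lung. All 40 symbols were found once each, and all 40 passed the default low-count filter of edgeR, against 15586 of the 35725 rows (43.6%). Of the 10 libraries, 5 came from P2ry14-null mice, which lack the UDP-sugar receptor P2Y14, and 5 from wild-type C57BL/6J mice (WT). All mice were male. Both genotypes received the same allergen protocol, in which 50 µg of ovalbumin with 20 µg of protease from Aspergillus oryzae was instilled into the oropharynx on a pair of occasions a week apart, a 1% ovalbumin aerosol followed 7 days after the last instillation, and lung eosinophils were collected by fluorescence-activated sorting 16 h later. The labels state neither the age of the mice, nor how the null allele was made, nor the strain background of the null line. All 10 libraries come from challenged mice.

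Immediate early genes are transcribed within minutes of a stimulus, without new protein synthesis, when kinase cascades such as the ERK, p38 and JNK pathways activate transcription factors already present in the nucleus. Serum response factor acts at CArG boxes and CREB at cyclic AMP response elements (CRE). Many of the products are transcription factors themselves (the EGR, FOS, JUN, NR4A and KLF families). Others switch the signal off again: DUSP phosphatases dephosphorylate MAP kinases, Sprouty proteins restrain Ras and ERK signalling, and ZFP36 proteins direct the decay of short-lived mRNAs. In granulocytes these genes respond to cytokines, chemoattractants and adhesion, and in any tissue also to the handling of cells.

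The targeted gene was examined first. P2ry14 stood at 21.8 to 24.2 reads per 1e+06 reads counted (CPM) in P2ry14-null libraries, against 190 to 229 CPM in WT libraries (log2 fold change -3.19 ± 0.06, SE; edgeR adjusted p = 3.74e-12). Library totals, in units of 1e+06 reads, ran from 67.2 to 150.9 in P2ry14-null and from 117.8 to 185.1 in WT libraries, so a count of 3 reads, the limit that a count of 0 allows, corresponds to 0.0165 to 0.0445 CPM (counting error only). The eosinophil marker Siglecf averaged 1232 CPM in P2ry14-null and 1282 CPM in WT libraries, and Ccr3 1428 and 1369 CPM. Epx had fewer CPM than Siglecf and Ccr3, at 28.1 in P2ry14-null and 23.9 in WT libraries (log2 fold change 0.23). It was the 1 of 7 eosinophil markers with an unadjusted edgeR p under 0.05, against 1.46% of all genes higher. After adjustment 0 of the 7 passed. Of 6 neutrophil markers, Elane had 0 reads in all 10 libraries. S100a9 averaged 122 CPM in P2ry14-null and 109 CPM in WT libraries, and Ly6g 1.65 and 1.24 CPM. The 4 neutrophil markers tested had log2 fold changes above 0, against 7975 of all 15586 genes. Of these, 2 (Ly6g and S100a8) had an unadjusted edgeR p under 0.05, against 1.46% of all genes higher. After adjustment 0 passed the test. S100a8 averaged 1.97 ± 1.53 CPM in P2ry14-null and 0.98 ± 0.21 CPM in WT libraries, with its highest value of 4.65 CPM in P2ry14-null library 2. P2ry14-null library 2 stood apart in genes of other cells: the 6 class II and dendritic cell markers summed to 419 CPM there, which is the top of a range from 72.8 CPM in P2ry14-null libraries, against 103 to 141 CPM in WT libraries. All 6 had log2 fold changes above 0, against 7975 of all 15586 genes, and 0 passed the test. The same library was the highest in the summed markers of alveolar macrophages (727 to 2154 CPM in P2ry14-null, against 775 to 998 CPM in WT libraries) and of epithelium (5.91 to 65.6 CPM in P2ry14-null, against 12.6 to 24.5 CPM in WT libraries). Summed neutrophil markers ran from 102 to 174 CPM in P2ry14-null and from 103 to 137 CPM in WT libraries. Those of mast cells and basophils ran from 0.80 to 1.84 CPM in P2ry14-null and from 1.65 to 2.75 CPM in WT libraries. All 5 mast cell and basophil markers tested had log2 fold changes below 0, against 48.8% of all genes, with a median of -0.59. Of these, 1 (Cpa3) had an unadjusted edgeR p under 0.05, against 2.67% of all genes lower, and 0 passed the test. The groups of Cpa3 did not overlap, against 0.648% of all genes. The part of these cells in the results was not tested. P2ry14-null library 2 was also the lowest of the 10 libraries for 13 of the 40 genes. Values without it are given for the summary over the 40 genes and for some of the genes.

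Promoter windows of RefSeq (build GRCm38.p6, 250 bases before to 50 after each transcription start) were matched for 33 of the 40 genes. Egr1, Egr3, Ier2, Dusp4, Klf10, Myc and Sik1 had no entry. Both strands were searched for the CArG box, for the CRE (TGACGTCA), for the AP-1 element (TGANTCA) and for the EGR element (GCGGGGGCG), and none of the elements in capitals here overlap each other. The EGR element was present in 8 of 33 genes (24.2%), against 5.57% of 11928 tested genes with a window. The CArG box was found in 3 of 33 (9.09%), against 1.56%, the CRE in 3 of 33 (9.09%), against 3.23%, and the AP-1 element in 2 of 33 (6.06%), against 6.89%. A gene counted as holding an element if any of its windows did, so genes with more annotated starts had more chances of a match. A match describes these letters only and is not evidence of binding. Bases outside the windows were not searched, so a gene without a match may hold an element further from its start.

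The CArG box was found in Egr2, Dusp5 and Zfp36, and these stretches are shown because the element is the classical input of serum response factor to immediate early genes. Capitals mark a matched element, and all stretches lie before the transcription start of the window used. Egr2 has more than one annotated start, and a window with the CArG box was used. In Dusp5 a pair of CArG boxes stood side by side, and in Zfp36 an EGR element preceded the CArG box. The Egr2 stretch lies at chr10:67537749-67537838 on the plus strand, that of Dusp5 at chr19:53529025-53529114 on the plus strand, and that of Zfp36 at chr7:28379259-28379368 on the minus strand.
Egr2: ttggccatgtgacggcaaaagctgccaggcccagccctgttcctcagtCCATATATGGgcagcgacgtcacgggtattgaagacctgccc
Dusp5: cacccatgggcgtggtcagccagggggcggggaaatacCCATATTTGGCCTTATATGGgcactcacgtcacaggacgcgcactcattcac
Zfp36: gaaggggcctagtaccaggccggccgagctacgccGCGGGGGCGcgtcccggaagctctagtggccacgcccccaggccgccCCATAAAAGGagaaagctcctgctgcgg

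The full CRE was found in Dusp1, Btg2 and Maff, shown because Dusp1 and Btg2 are among the most abundant transcripts of the 40 per length. The Dusp1 stretch lies at chr17:26508573-26508652 on the minus strand, and that of Btg2 at chr1:134079276-134079355 on the minus strand. That of Maff lies at chr15:79347430-79347509 on the plus strand, before a start inside the gene, whose span begins at 79346621.
Dusp1: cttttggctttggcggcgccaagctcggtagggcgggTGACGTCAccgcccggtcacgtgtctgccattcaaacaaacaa
Btg2: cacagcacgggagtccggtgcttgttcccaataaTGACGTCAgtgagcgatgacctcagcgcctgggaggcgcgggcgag
Maff: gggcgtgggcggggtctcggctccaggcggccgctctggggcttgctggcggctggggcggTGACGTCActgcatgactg

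The EGR element was found in Fosb, Fosl2, Nr4a1, Klf2, Klf4, Mafk, Zfp36 and Dusp2. The Dusp2 stretch, at chr2:127336019-127336108 on the plus strand, is shown because Dusp2 is among the 4 genes with an unadjusted p under 0.05.
Dusp2: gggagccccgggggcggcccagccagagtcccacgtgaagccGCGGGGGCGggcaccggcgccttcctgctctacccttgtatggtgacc

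The 40 genes are short. Their median span in the table was 4.95 kb, against 21.9 kb over 13037 tested genes with a GENCODE length, and 20 of the 40 (50%) spanned under 5 kb, against 12.9%. Their longest annotated transcripts had a median of 3 exons, against 9. Jun, Jund, Ier2, Ier5 and Hexim1 are annotated with a single exon. They lie on 18 chromosomes, with 5 on chromosome 8 (Junb, Jund, Ier2, Dusp4 and Klf2).

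As a group these transcripts were abundant in lung eosinophils of both genotypes. They took 3.56 to 4.45% of the scaled reads in P2ry14-null libraries and 3.76 to 4.54% in WT libraries. Per kilobase of exon, 11 of the 40 ranked among the top 100 of 13037 genes, and mean levels over the 10 libraries ran from 0.037 CPM per kb (Spry1) to 2611 CPM per kb (Junb). By CPM, 12 of the 40 averaged over 1000, 13 lay between 1 and 100, and Dusp4 and Spry1 were under 1.

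Junb, a partner of FOS proteins in the AP-1 factor, was the most abundant of the 40 per length and ranked 6 of 13037 genes. Its level was 2569 ± 290 CPM per kb in P2ry14-null and 2653 ± 244 CPM per kb in WT libraries (SD, n = 5 each). Dusp1, a phosphatase of p38, JNK and ERK kinases, followed at rank 7 with 2294 ± 194 and 2329 ± 161 CPM per kb in P2ry14-null and WT libraries. The difference between these neighbours was within their spread. Next came Btg2, an antiproliferative adaptor of mRNA deadenylation, at rank 19, Zfp36 (tristetraprolin), which binds AU-rich mRNAs, at rank 23, Fos at rank 25 and Jund at rank 28. Levels of Btg2, Zfp36, Fos and Jund in P2ry14-null libraries were 1226 ± 140, 1116 ± 119, 1045 ± 126 and 922 ± 171 CPM per kb. In WT libraries they were 1181 ± 55.2, 1134 ± 106, 1038 ± 35.8 and 959 ± 134 CPM per kb, so that neighbours in this order lay within or close to each other's spread. The exon length of the authors' counting is not known, and these ranks rest on merged GENCODE exons.

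**Figure D1:**
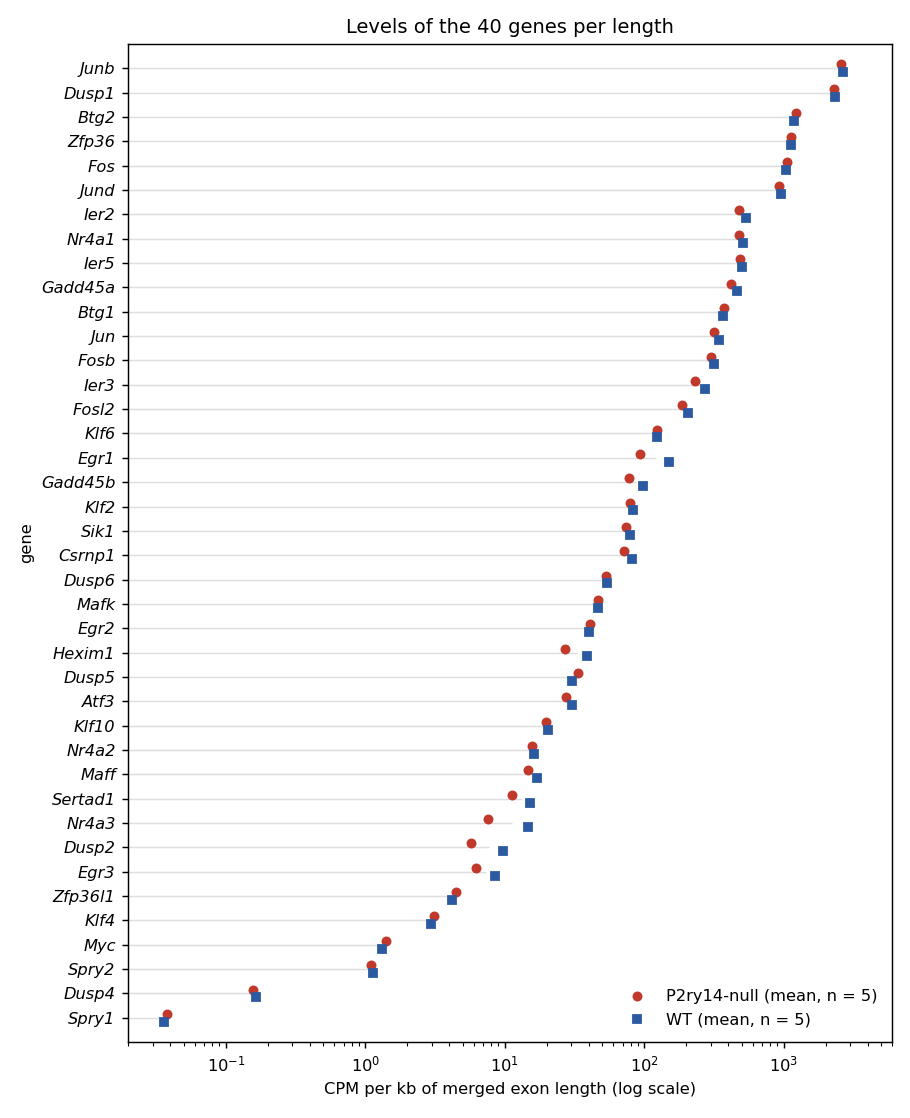
Mean level of each of the 40 genes in CPM per kb of merged exon length, on a log axis, for P2ry14-null (circles) and WT libraries (squares), n = 5 each. Levels span from 0.037 CPM per kb for Spry1 to 2611 CPM per kb for Junb, and the markers of the genotypes lie close together for most genes.

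The comparison of genotypes asked whether eosinophils without P2Y14 hold different levels of these transcripts 16 h after challenge. None of the 40 genes passed the edgeR quasi-likelihood test at an adjusted p of 0.05, against 6 of all 15586 genes (0.0385%; 0.0257% lower in P2ry14-null), and the smallest adjusted p was 0.952 (Egr1). At an unadjusted p under 0.05 there were 4 of 40, all lower in P2ry14-null (Egr1, Egr3, Dusp2 and Nr4a3), against 4.13% of all genes in either direction and 2.67% lower. DESeq2 also called 0 of the 40 after adjustment, against 0.118% of genes with an adjusted p, and placed 6 under an unadjusted p of 0.05, against 4.09% of those genes. The log2 fold change, P2ry14-null minus WT, was below 0 for 31 of 40 genes, against 48.8% of all genes. The median over the 40 was -0.06, against 0.003 over all genes, and these genes are not independent of each other. Egr1 was the sole gene of the 40 whose groups did not overlap, against 0.648% of all genes.

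For 32 of the 40 genes the 95% interval of the fold change, not adjusted for the number of genes, lay within 1.5-fold in either direction. The other 8 were Egr1, Egr3, Nr4a3, Dusp2, Sertad1, Hexim1, Gadd45b and Spry1. With 5 libraries a group, the intervals of these 8 reached beyond 1.5-fold. For 4 of them (Egr1, Egr3, Nr4a3 and Dusp2) the unadjusted interval left out 0, but 0 of the 40 passed after adjustment. In bulk RNA, fewer cells with a transcript and less of it per cell cannot be told apart.

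Single libraries weighed on these summaries. Without WT library 4, 26 of the 40 lay below 0 and the median was -0.034. Without WT library 3 the median was -0.116, and without P2ry14-null library 3 it was -0.103. Without P2ry14-null library 2, the highest in the summed class II and dendritic cell markers, 32 lay below 0 with a median of -0.061. With this library left out, 7 genes changed sign (Egr2, Nr4a2, Klf4, Klf6, Zfp36, Zfp36l1 and Spry1). The number of the 40 genes at an unadjusted p under 0.05 moved with the library left out. It was 9 without WT library 3, where the share of all genes was 8.77%, 9 without WT library 5 (4.24% of all genes) and 8 without WT library 2 (3.52%). With P2ry14-null library 3 left out it was 7 (5.08%). It was 6 without P2ry14-null library 4 (3.73% of all genes) and 5 without P2ry14-null library 2 (4.08%). It was 3 without WT library 1 (3.62%), WT library 4 (4.48%), P2ry14-null library 1 (3.48%) or P2ry14-null library 5 (3.01%). Of the 5 without P2ry14-null library 2, 4 were lower in P2ry14-null, and of the 3 without WT library 4, 2 were lower. With single libraries left out, from 3 to 8 of the 40 log2 fold changes changed sign.

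**Figure D2:**
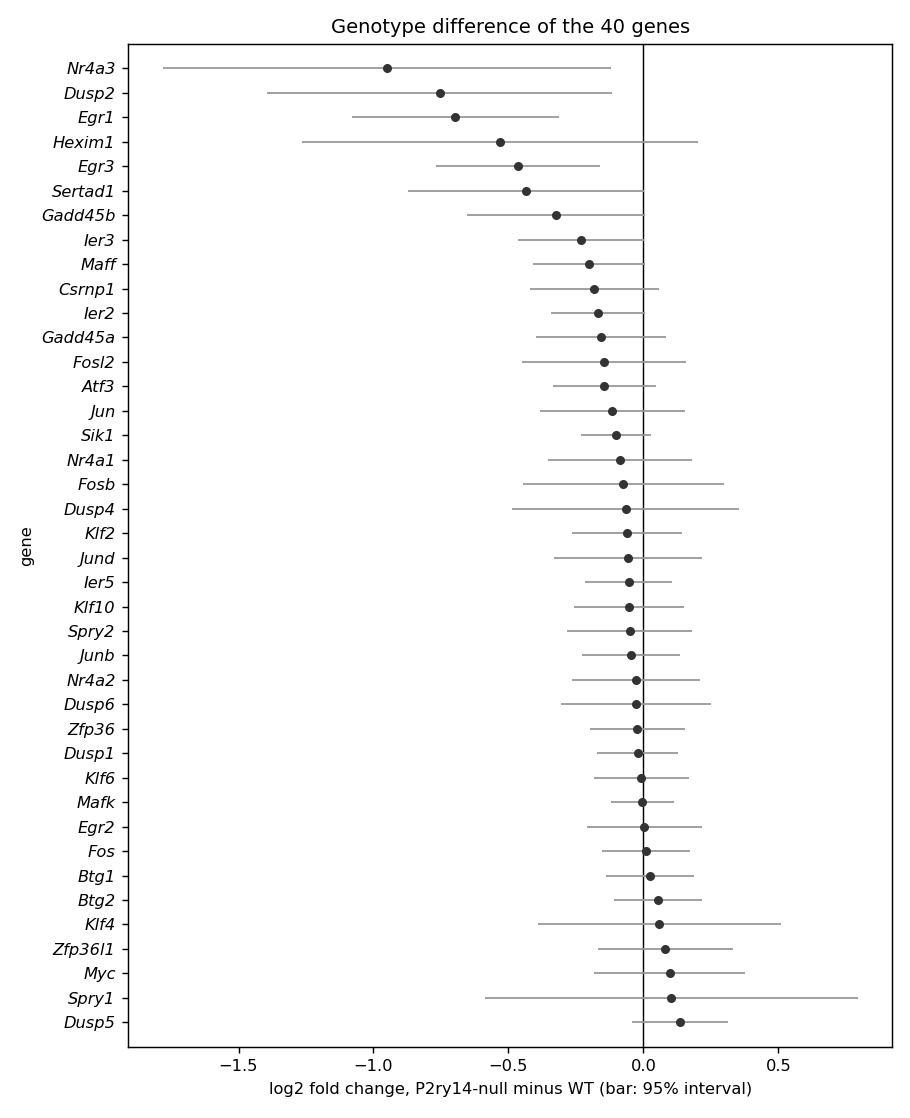
Log2 fold change, P2ry14-null minus WT, of each of the 40 genes with its 95% interval from the edgeR fit (not adjusted for the number of genes). The 4 intervals that leave out 0 are those of Nr4a3, Dusp2, Egr1 and Egr3, and 31 of 40 points lie left of 0.

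Among the EGR zinc-finger factors, which are induced through ERK and serum response factor, Egr1 and Egr3 had lower values in P2ry14-null libraries without passing the test, and Egr2 had like means. Egr1 had 493, 305, 354, 477 and 462 CPM in P2ry14-null libraries 1 to 5, against 559, 690, 582, 1014 and 542 CPM in WT libraries 1 to 5. Every P2ry14-null value lay below every WT value, and WT library 4 was the highest. Its mean was 418 ± 83.5 CPM in P2ry14-null and 677 ± 197 CPM in WT libraries (SD, n = 5 each), a log2 fold change of -0.70 ± 0.18 (SE; edgeR adjusted p = 0.952). Without WT library 4 the log2 fold change was -0.50 (edgeR adjusted p = 0.884), and without P2ry14-null library 2 it was -0.60 (edgeR adjusted p = 0.949).

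Egr3 (gene ID 13655, plus strand of chr14:70077445-70082613 in mm10) had 31.6, 21.5, 26.6, 34.9 and 22.3 CPM in P2ry14-null libraries, against 39.9, 35.7, 44.4, 28.6 and 39.9 CPM in WT libraries. The groups overlapped only through WT library 4, which was the lowest of its group for Egr3 although it was the highest for Egr1, and 2 P2ry14-null libraries above it. Its log2 fold change was -0.46 ± 0.14 (SE), with an edgeR adjusted p of 0.999, and it was -0.39 without P2ry14-null library 2. Egr2 averaged 138 ± 12.8 CPM in P2ry14-null and 137 ± 21.2 CPM in WT libraries (log2 fold change 0.003, 95% interval -0.21 to 0.22).

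None of the AP-1 genes passed the test. Fos had 2084, 2375, 2897, 2396 and 2531 CPM in P2ry14-null libraries, against 2493, 2441, 2308, 2529 and 2433 CPM in WT libraries. The WT values were close together and lay inside the P2ry14-null range (log2 fold change 0.009, 95% interval -0.15 to 0.17). Junb had 5545, 5285, 6809, 6427 and 5490 CPM in P2ry14-null libraries, against 6664, 6090, 5532, 6673 and 5562 CPM in WT libraries. The groups overlapped over most of their range (log2 fold change -0.05, 95% interval -0.23 to 0.14).

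Jund, whose exons overlap a gene of the opposite strand over 52.6% of their length, had 1144, 1448, 1935, 1585 and 1574 CPM in P2ry14-null libraries. In WT libraries it had 1845, 1692, 1266, 1693 and 1500 CPM, again inside that range (log2 fold change -0.06 ± 0.13, SE). Atf3, a stress-induced factor of the same leucine zipper class, had 46.5, 63.8, 64.9, 57.1 and 62.1 CPM in P2ry14-null libraries, against 69.3, 57.5, 61.7, 65.2 and 72.2 CPM in WT libraries. P2ry14-null library 1, the shallowest, was the lowest, and without it the log2 fold change of Atf3 was -0.07, against -0.15 with it. Fosb, Fosl2 and Jun had log2 fold changes of -0.07, -0.15 and -0.12, and of the 7 AP-1 genes 6 lay below 0 with 0 under an unadjusted p of 0.05. Without WT library 4, Fosb was at 0.03, Fosl2 at -0.02 and Jun at 0.001, and 4 of the 7 lay below 0. The count was also 4 of 7 without P2ry14-null library 1.

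The orphan nuclear receptors of the NR4A family differed among themselves. Nr4a1 averaged 1685 ± 291 CPM in P2ry14-null and 1791 ± 274 CPM in WT libraries, and Nr4a2 64.0 ± 11.1 and 65.2 ± 7.55 CPM in P2ry14-null and WT libraries. The log2 fold change of Nr4a1 was -0.09, and -0.03 without P2ry14-null library 2. Nr4a3 (gene ID 18124, plus strand of chr4:48044889-48086447 in mm10) was the most variable of the 40, with an SD of log2 CPM within genotypes of 0.75. It had 39.9, 21.5, 59.4, 75.3 and 32.1 CPM in P2ry14-null libraries, against 96.0, 66.3, 53.6, 178 and 46.6 CPM in WT libraries. The groups overlapped, and an 8.30-fold range separated WT library 4 from P2ry14-null library 2. Its log2 fold change was -0.95 ± 0.38 (SE), with an edgeR adjusted p of 0.999, and it was -0.52 without WT library 4. Leaving out P2ry14-null library 2 gave -0.77.

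The DUSP phosphatases split by level and by library. The nuclear phosphatase Dusp1 had 6664, 7473, 8353, 7471 and 8023 CPM in P2ry14-null libraries, against 8466, 7533, 7151, 8035 and 7373 CPM in WT libraries. The groups overlapped over nearly the whole range (log2 fold change -0.02, 95% interval -0.17 to 0.13). Dusp2 (gene ID 13537, plus strand of chr2:127336159-127338377 in mm10), a nuclear phosphatase of activated leukocytes, had 10.5, 9.48, 13.1, 13.8 and 10.8 CPM in P2ry14-null libraries. In WT libraries it had 16.8, 15.5, 12.5, 40.9 and 11.6 CPM, with the highest value in WT library 4. WT libraries 3 and 5 lay within the P2ry14-null range and WT libraries 1 and 2 just above it. Its log2 fold change was -0.75 ± 0.30 (SE), with an edgeR adjusted p of 0.999, and it was -0.28 without WT library 4.

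Dusp6, the cytoplasmic phosphatase of ERK, ran the other way across libraries. It had 169, 181, 175, 132 and 176 CPM in P2ry14-null libraries, against 171, 169, 188, 117 and 205 CPM in WT libraries. Library 4 of each genotype was the lowest of its group for Dusp6 and the highest of its group for Nr4a3 and Dusp2. The group means of Dusp6 were 167 ± 19.8 and 170 ± 33.0 CPM in P2ry14-null and WT libraries (log2 fold change -0.03 ± 0.13, SE). Dusp5, an ERK phosphatase of the nucleus whose exons overlap a gene of the opposite strand over 22.1% of their length, had the most positive log2 fold change of the 40, at 0.14 (95% interval -0.04 to 0.31). Dusp4 was low, at 0.43 ± 0.11 CPM in P2ry14-null and 0.45 ± 0.08 CPM in WT libraries.

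**Figure D3:**
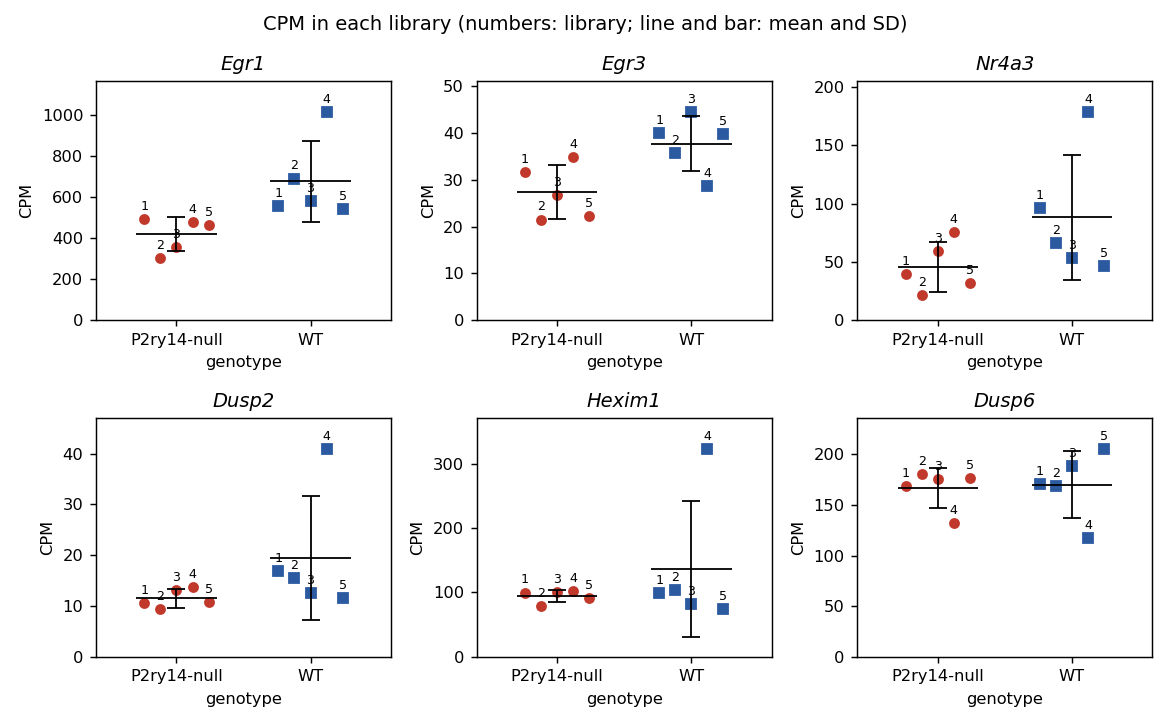
CPM of Egr1, Egr3, Nr4a3, Dusp2, Hexim1 and Dusp6 in each P2ry14-null (circles) and WT library (squares), with library numbers, the group mean as a line and the SD as a bar (n = 5 each). WT library 4 is the highest for Egr1 (1014 CPM), Nr4a3 (178), Dusp2 (40.9) and Hexim1 (323) and the lowest for Dusp6 (117).

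Of the other feedback regulators, 0 of 3 passed the test. Sik1, a kinase that CREB induces and that restrains the CREB co-activators of the CRTC family, had 357, 339, 420, 394 and 384 CPM in P2ry14-null libraries, against 425, 414, 385, 420 and 387 CPM in WT libraries. The groups overlapped, with the lowest 3 values in P2ry14-null (log2 fold change -0.10 ± 0.06, SE; -0.06 without P2ry14-null library 2). Spry2 stood at 2.28 ± 0.25 CPM in P2ry14-null and 2.36 ± 0.26 CPM in WT libraries. Spry1, with as few as 5 reads in a library, had 0.0741, 0.169, 0.109, 0.14 and 0.0577 CPM in P2ry14-null libraries, against 0.107, 0.0921, 0.0717, 0.102 and 0.154 CPM in WT libraries. At this depth no difference of Spry1 was detectable (95% interval of the log2 fold change -0.59 to 0.79).

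Among nuclear early response proteins, all 6 lay below 0 by value, with 0 under an unadjusted p of 0.05. Ier2 had 750, 642, 747, 759 and 709 CPM in P2ry14-null libraries, against 853, 905, 702, 885 and 711 CPM in WT libraries. The groups overlapped through WT libraries 3 and 5 (log2 fold change -0.17 ± 0.08, SE; -0.13 without P2ry14-null library 2). Ier3, which modulates ERK and survival signalling, had 274, 275, 264, 246 and 243 CPM in P2ry14-null libraries, against 354, 269, 268, 385 and 253 CPM in WT libraries. Its WT group was drawn upwards by libraries 1 and 4 (log2 fold change -0.23 ± 0.11, SE; -0.13 without WT library 4). 

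Sertad1, a regulator of E2F-dependent transcription, showed the same pattern, with 14.7, 13.5, 16.8, 18.2 and 12.3 CPM in P2ry14-null libraries and 28.7, 17.1, 13.4, 27.9 and 15.1 CPM in WT libraries. WT libraries 1 and 4 were high and the rest overlapped with P2ry14-null (log2 fold change -0.44 ± 0.20, SE; -0.28 without WT library 1). Csrnp1, a nuclear protein of the early response, had 245, 229, 298, 258 and 211 CPM in P2ry14-null libraries, against 311, 260, 248, 346 and 242 CPM in WT libraries (log2 fold change -0.18 ± 0.11, SE; -0.09 without WT library 4). Ier5 averaged 1579 ± 187 CPM in P2ry14-null and 1639 ± 73.2 CPM in WT libraries.

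Hexim1 (gene ID 192231, plus strand of chr11:103116325-103119725 in mm10), which holds the elongation kinase P-TEFb inactive, depended on 1 library. It had 99.9, 78.2, 101, 102 and 91.4 CPM in P2ry14-null libraries, against 99.1, 104, 81.7, 323 and 74.4 CPM in WT libraries. Apart from WT library 4 the groups overlapped over their whole range. Over all libraries its log2 fold change was -0.53 ± 0.34 (SE), with an edgeR adjusted p of 0.999, and it was 0.08 without WT library 4.

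Small MAF, KLF and MYC genes did not pass the test, and their groups overlapped. Maff, a small MAF protein without an activation domain, had 38.9, 36.3, 38.8, 40.7 and 36.1 CPM in P2ry14-null libraries, against 56.7, 39.95, 37.9, 45.3 and 39.6 CPM in WT libraries. WT library 1 was the highest (log2 fold change -0.20 ± 0.10, SE; -0.09 without it). Mafk was the steadiest of the 40, at 181 ± 7.63 CPM in P2ry14-null and 181 ± 12.7 CPM in WT libraries. Klf2, Klf4, Klf6 and Klf10 had log2 fold changes from -0.06 to 0.06, and Myc was at 3.83 ± 0.75 CPM in P2ry14-null and 3.56 ± 0.40 CPM in WT libraries.

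Genes of mRNA turnover and growth arrest were split evenly, 3 of 6 below 0. Zfp36 had 3474, 3472, 4450, 3975 and 3992 CPM in P2ry14-null libraries, against 3937, 3697, 3730, 4568 and 3736 CPM in WT libraries. The groups overlapped (log2 fold change -0.02, 95% interval -0.20 to 0.15). Btg2 had 3612, 2879, 3655, 3656 and 3018 CPM in P2ry14-null libraries, against 3052, 3312, 3451, 3161 and 3218 CPM in WT libraries. The WT values lay inside the P2ry14-null range (log2 fold change 0.05, 95% interval -0.11 to 0.22).

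The stress-induced regulator Gadd45b, which acts on the p38 and JNK pathways, had 118, 107, 143, 148 and 101 CPM in P2ry14-null libraries, against 162, 133, 131, 218 and 128 CPM in WT libraries. WT library 4 was the highest, and P2ry14-null libraries 3 and 4 lay within the WT range (log2 fold change -0.32 ± 0.15, SE; -0.16 without WT library 4). Gadd45a, Btg1 and Zfp36l1 had log2 fold changes of -0.16, 0.02 and 0.08. Without P2ry14-null library 2 these were -0.09, 0.06 and -0.006. The exons of Zfp36l1 and Gadd45a overlap genes of the opposite strand over 55.9 and 19.1% of their length, and the strand setting of the counting is not known.

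Libraries of one genotype differed in these genes more than in most. The median SD of log2 CPM within genotypes was 0.208 over the 40 genes, against 0.144 over all 15586 genes, and 31 of the 40 lay above that value. Of the 40, 3 were in the top decile of all genes (Nr4a3, Hexim1 and Dusp2), which is not more than a decile's share. The widest were Nr4a3 (0.75), Hexim1 (0.62), Dusp2 (0.54) and Spry1 (0.46), of which Spry1 is at low counts, and the narrowest was Mafk (0.083). Across the 10 libraries, 9 of the 40 ranged over more than 2-fold, with no count over all genes beside it.

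**Figure D4:**
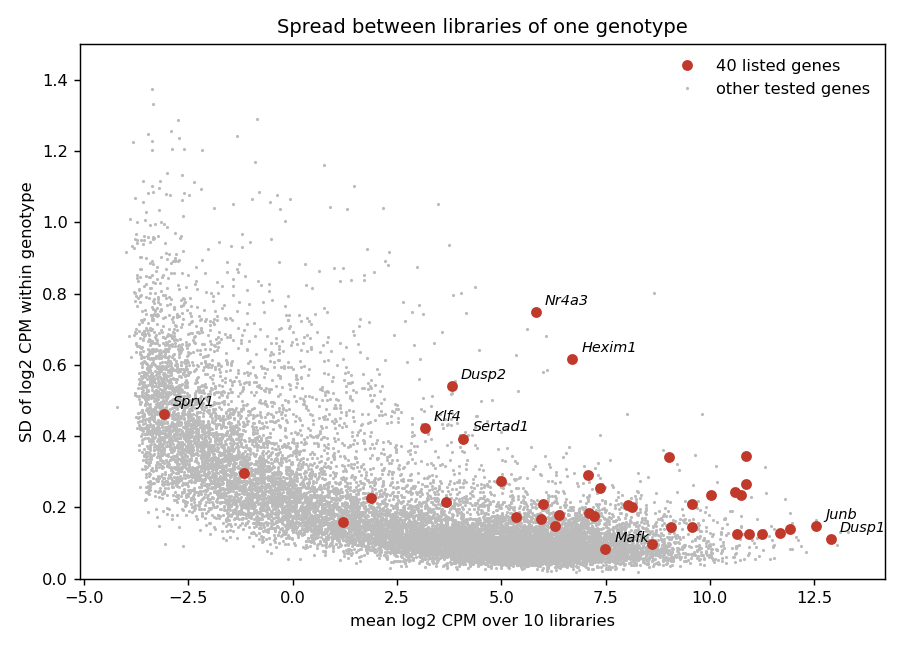
SD of log2 CPM within genotypes against mean log2 CPM for the 40 genes (large points) and the other tested genes (small points; 5 genes lie above the axis end of 1.5). Nr4a3 (0.75), Hexim1 (0.62) and Dusp2 (0.54) stand above the main cloud of points, and Mafk (0.083) lies inside it.

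With group means removed, the median deviation of the 40 genes in log2 CPM was -0.035, -0.125, 0.140, 0.088 and -0.043 in P2ry14-null libraries 1 to 5, and 0.072, -0.036, -0.097, 0.134 and -0.076 in WT libraries 1 to 5. P2ry14-null library 3 had 32 of the 40 above its group mean, WT library 4 had 30, P2ry14-null library 2 and WT library 3 had 11 each, and WT library 5 had 10. WT library 4 held the highest value of all 10 libraries for 13 genes and P2ry14-null library 2 the lowest for 13.

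**Figure D5:**
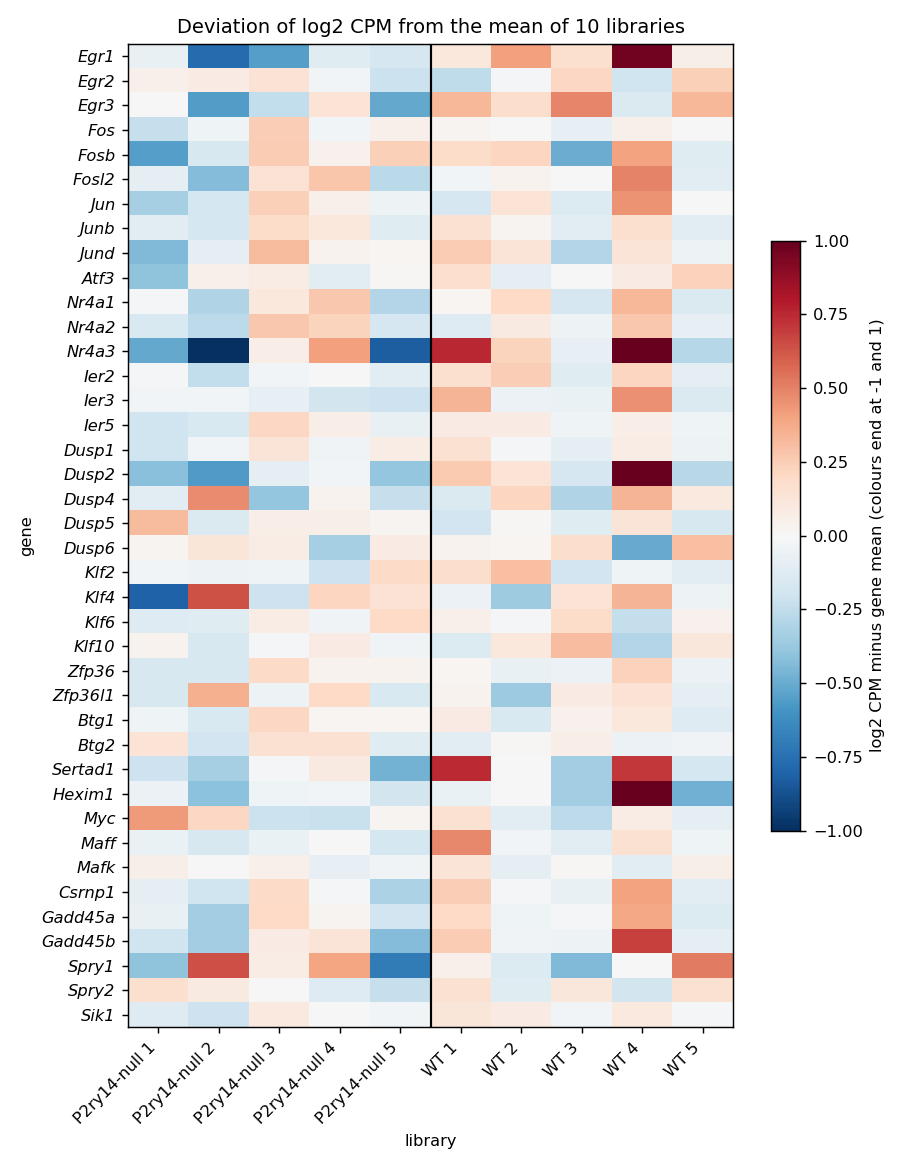
Deviation of log2 CPM from each gene's mean over 10 libraries, with P2ry14-null libraries on the left and WT libraries on the right of the line; colours end at -1 and 1. WT library 4 is high in Egr1, Nr4a3, Dusp2 and Hexim1 and low in Dusp6 and Klf6, and P2ry14-null library 2 is low in Egr1, Egr3, Nr4a3 and Dusp2.

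Heat shock genes, which respond to protein damage and handling, had lower mean values in P2ry14-null libraries. All 10 of 10 lay below 0, against 48.8% of all genes, with a median log2 fold change of -0.48. After adjustment 0 passed the edgeR test, against 0.0385% of all genes. All 10 were lower at an unadjusted p under 0.05, against 2.67% of all genes. Their CPM summed to 1168, 1290, 1932, 1420 and 903 in P2ry14-null libraries 1 to 5, against 2179, 1861, 1826, 1536 and 2008 in WT libraries 1 to 5. P2ry14-null library 3 was the highest of its genotype in the heat shock sum and in the median deviation of the 40 genes. WT library 4, the highest of its genotype in the 40 genes, was the lowest WT library in the heat shock sum. Hsp90ab1 and Hspa8 were the largest parts of that sum, and WT library 4 was the lowest WT library in both (604 and 473 CPM). The low-level Hspa1b and Hspa1a went the other way: WT library 4 was the highest of all 10 libraries (11.1 and 4.10 CPM). The part of these heat shock values in the values of the 40 genes was not tested.

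The kinases and transcription factors upstream of these genes did not pass the test either. Of 24 genes of the Ras, RAF, MEK, ERK, p38 and JNK cascades, 0 passed the edgeR test, against 0.0385% of all genes. An unadjusted p under 0.05 was found for 0 of the 24, against 4.13% of all genes. Of these 24, 15 lay below 0, against 48.8% of all genes, and the median log2 fold change was -0.01. The smallest p were those of Hras (log2 fold change -0.11), Mapk14 (-0.08), which encodes p38 alpha, and Mapkapk2 (-0.07). Of 16 transcription factors and co-activators that act on immediate early promoters, 0 passed and 8 lay below 0 (48.8% of all genes), with a median of -0.005. An unadjusted p under 0.05 was found for 1 of the 16 (4.13% of all genes). That gene was Crem, a factor of the CREB family with repressor forms, at 21.4 ± 3.33 CPM in P2ry14-null and 25.8 ± 3.12 CPM in WT libraries (log2 fold change -0.27 ± 0.11, SE). Serum response factor itself (Srf) stood at 124 ± 4.07 CPM in P2ry14-null and 132 ± 5.06 CPM in WT libraries (-0.09 ± 0.04), and Crtc2 at -0.08.

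Of 41 other early response and feedback genes, 38 were tested, while Egr4, Dusp14 and Spry4 did not pass the low-count filter. None of the 38 passed the edgeR test after adjustment, against 0.0385% of all genes. At an unadjusted p under 0.05, 4 were lower and 1 higher, against 2.67% and 1.46% of all genes. Of the 38, 28 lay below 0, against 48.8% of all genes, and the median log2 fold change was -0.08. Cited2, a transcriptional co-regulator induced by cytokines and hypoxia, stood at 99.4 ± 6.32 CPM in P2ry14-null and 121 ± 12.1 CPM in WT libraries (-0.29 ± 0.07, SE; edgeR adjusted p = 0.770). Phlda1, an early gene of ERK signalling, stood at 14.7 ± 1.70 and 19.4 ± 3.92 CPM in P2ry14-null and WT libraries (-0.41 ± 0.12). Nab2, a co-repressor that binds EGR proteins, stood at 33.2 ± 3.11 CPM in P2ry14-null and 41.0 ± 7.0 CPM in WT libraries (-0.31 ± 0.11, SE; edgeR adjusted p = 0.999). Arc, an early gene best known from neurons, was the remaining lower one, at 0.22 ± 0.05 CPM in P2ry14-null and 0.43 ± 0.38 CPM in WT libraries (-0.98 ± 0.44, SE), with its highest value of 1.11 CPM in WT library 4. The higher one was Dusp7, a cytoplasmic ERK phosphatase, at 10.9 ± 0.51 CPM in P2ry14-null and 9.83 ± 0.86 CPM in WT libraries (0.15 ± 0.07, SE; edgeR adjusted p = 0.999).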

How the data were processed

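Whole-number read counts per gene, deposited by the authors in 1 table for 10 libraries, were the data used. STAR 2.5, featureCounts 1.5.0-p1 of Subread, DESeq2 and the build mm10 are named in the submitters' processing notes; for the annotation, strand setting and multi-mapped reads nothing is stated. Per the labels' protocols, RNA from sorted cells was made into TruSeq libraries. Whether libraries stem from separate mice is not stated, so p-values reflect the spread among these libraries, possibly technical.

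edgeR 4.0.16 (R 4.3.3) was run on all counts with TMM factors, filterByExpr, genotype as the sole term and quasi-likelihood F tests, with Benjamini-Hochberg adjustment over 15586 genes and a threshold of 0.05. CPM used TMM-scaled library sizes; SE is the log2 fold change over the square root of F; log2 CPM used a prior count of 2. Levels per kb used merged exons of GENCODE vM21, found for 83.6% of tested genes. Chi-square per gene was 24.2 or more for each of 20 pairs of libraries within a group, so each was counted once.

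The 40 genes, the other lists and the tests were chosen with earlier results of these data known, so no list was given a p. Values in each library are given for the 12 genes of the smallest p, the 6 of the highest level per length and the 4 of the largest SD, and also, chosen after its values were seen, for Dusp6. Alternatives were DESeq2 1.42.0, other scaling factors, no low-count filter, the replicate number as a block and each library left out.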

Additional observations from a re-analysis of the deposited data

Results flagged for a closer look

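Of 82 groups of 5 libraries examined for a value far from the other 4, 5 held one, where chance flags about 1 in 20. In 4 of them the value was that of WT library 4. Hexim1 had 323 CPM there, against 74.4 to 104 CPM in the other WT libraries. Dusp2 had 40.9 CPM, against 11.6 to 16.8 CPM. Fosl2 had 2619 CPM, against 1715 to 1904 CPM, and Zfp36 had 4568 CPM, against 3697 to 3937 CPM. The remaining one was Dusp6 in P2ry14-null library 4, at 132 CPM, against 169 to 181 CPM in the other P2ry14-null libraries.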

How the results depend on the processing

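Under all 15 alternatives, 0 of the 40 genes passed the threshold. With other scaling factors, no filter, DESeq2 or a replicate block, 31 to 33 genes lay below 0, with medians from -0.068 to -0.058. With single libraries left out, 26 to 33 lay below 0, with medians from -0.116 to -0.034. The smallest adjusted p of the 40 was 0.327 in DESeq2 (Egr3), 0.452 in edgeR without a filter (Egr1) and 0.441 without WT library 3. At an unadjusted p under 0.05 there were 4 of the 40 (4.13% of all genes), 9 without a filter (4.19%) and 8 with the replicate block (3.82%). With single libraries left out there were 3 to 9 (3.01 to 8.77% of all genes). Over all genes DESeq2 called 19 and edgeR 6; with libraries left out edgeR called 3 to 5. Of 315 values of P2ry14 and the 20 genes shown by library, 14 changed sign and 0 crossed the threshold. Fos was at -6.4e-04 without a filter. With libraries left out, log2 fold changes ran from -0.048 to 0.063 for Fos, from -0.050 to 0.022 for Dusp1, from -0.069 to 0.043 for Zfp36, from -0.146 to 0.032 for Jund, from -0.112 to 0.287 for Spry1 and from -0.687 to 0.079 for Hexim1; the cause was not tested.

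Libraries that share a number did not vary together (5 pairs, correlations of deviations between -0.093 and 0.094), and 1 of 5 numbers had both libraries correlating best with each other. With the replicate block, 0 of the 40 passed, 31 lay below 0 with a median of -0.063, and 6 genes were called over all genes. Counts under 100 reads per library limited Spry1 and Dusp4.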
